A study of Homo sapiens with 36 samples.

Results

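The 10 genes described here, CDH1, CDH2, VIM, FN1, ZEB1, ZEB2, SNAI1, SNAI2, TWIST1 and TWIST2, are textbook markers and drivers of the epithelial-mesenchymal transition (EMT). They were taken by name from 20163 protein-coding genes of the annotation, and all 10 were found in it. Their chromatin was examined in DU145, an established prostate cancer cell line. The cells carried either a control short hairpin RNA (shCTR) or shPHF19L#4, a hairpin delivered by lentivirus that targets PHF19L, the long isoform of PHF19. Cells were selected with puromycin, and the effect of a single hairpin in a single line is all that the comparison holds. The data were 14 ChIP-seq peak lists, 2 replicates each of PHF19, EZH2 and SUZ12 in shCTR and of H3K27me3 and MTF2 in both kinds of cells, and 5 tables of differential binding. The study describes the replicates as biological, the labels do not say which cultures they came from, and the amount of PHF19 left in the cells was not analysed here. Each gene was given every peak that overlapped, by at least 1 bp, the stretch from 10 kb upstream of its start to its end. The name of the group says nothing about whether the genes were active in these cells, since no RNA values were analysed here.

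In EMT, epithelial cells lose the E-cadherin (CDH1) junctions that hold them together and take on N-cadherin (CDH2), the intermediate filament vimentin (VIM) and the matrix protein fibronectin (FN1). Transcription factors of the ZEB, SNAI and TWIST families drive the change, and ZEB and SNAI proteins repress CDH1. Polycomb repressive complex 2 (PRC2), whose core subunits include the methyltransferase EZH2 and SUZ12, trimethylates lysine 27 of histone H3 (H3K27me3), a mark of silenced genes. PHF19 and MTF2 are Polycomb-like proteins that associate with PRC2.

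Peaks were found at 9 of the 10 genes, where 70.3% of all protein-coding genes had a peak in any list. They numbered 138 in all, of which 73 lay in the TWIST1 interval. ZEB2 had a peak in 11 of the 14 lists, TWIST1 in 9, FN1 in 8, SNAI2 in 7 and CDH1 in 6. ZEB1 had a peak in 3 lists, and CDH2, VIM and TWIST2 in 1 list each. SNAI1 had none in any list. A peak in both replicates of at least 1 group was found at 5 of the 10 genes, CDH1, FN1, ZEB2, SNAI2 and TWIST1, and at 23.9% of all genes.

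**Figure D1:**
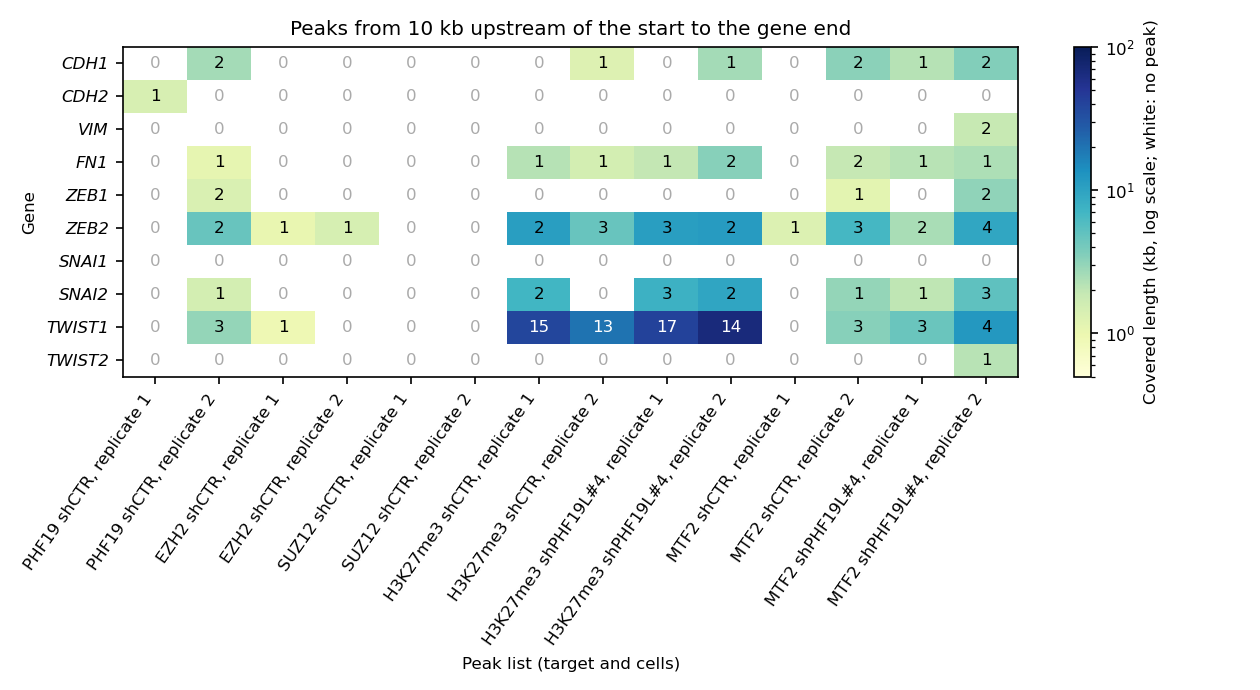
Number of peaks (digits) and length covered by peaks (colour, kb on a log scale) for each EMT gene (rows) in each of the 14 peak lists (columns), from 10 kb upstream of the start to the gene end. ZEB2 and TWIST1 have peaks in 11 and 9 lists, and SNAI1 has none.

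The peak lists were very unequal, so each count was read against the share of all protein-coding genes that met the same rule. PHF19 peaks numbered 1072 in replicate 1 and 14218 in replicate 2. None of the 10 genes had a PHF19 peak in both replicates, a count close to the 3.89% of all genes that did. Replicate 1 held a peak at CDH2 alone (1 of 10, against 4.09% of all genes), and replicate 2 held peaks at 6 genes (against 26.1%), which were CDH1, FN1, ZEB1, ZEB2, SNAI2 and TWIST1. The list of replicate 1, though far shorter, was not simply contained in the other at these genes, since the CDH2 peak was in replicate 1 alone.

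EZH2 peaks marked ZEB2 in both replicates (1 of 10, against 2.51% of all genes). This count fell to 0 with 2.5 kb to each side of the start and with a score of at least 100. It was also 0 where the peaks of the replicates had to overlap each other. In replicate 1 EZH2 peaks marked ZEB2 and TWIST1 (2 of 10, against 3.56%), and in replicate 2 ZEB2 alone (1 of 10, against 5.47%). No EMT gene had a SUZ12 peak in either replicate. SUZ12 lists were short, and they marked 1.22% of all genes in replicate 1, 1.05% in replicate 2 and 0.283% in both. A count of 0 of 10 is close to these shares.

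H3K27me3 marked FN1, ZEB2 and TWIST1 in both shCTR replicates (3 of 10, against 15.0% of all genes). In shPHF19L#4 cells it marked these 3 and SNAI2 (4 of 10, against 21.3%). By replicate, H3K27me3 peaks were at 4 genes in each of the shCTR lists, against 22.5% of all genes in replicate 1 and 16.7% in replicate 2. They were at 4 genes in replicate 1 of shPHF19L#4 (against 21.9%) and at 5 genes in replicate 2 (against 32.8%).

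MTF2 marked ZEB2 alone in both shCTR replicates (1 of 10, against 6.15% of all genes), and CDH1, FN1, ZEB2, SNAI2 and TWIST1 in both shPHF19L#4 replicates (5 of 10, against 11.1%). The added 4 genes came from replicate 1, which marked 1 gene in shCTR (6.44% of all genes) and 5 in shPHF19L#4 (11.5%). Replicate 2 already had peaks at all 5 of them in shCTR. It marked 6 of the 10 genes in shCTR (53.1% of all genes) and 8 in shPHF19L#4 (54.2%). The smallest p that an exact permutation of 2 replicates against 2 allows is 0.333, and the counts were therefore not tested.

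CDH1, the epithelial member, lies on chr16:68771195-68869440 of GRCh37, on the plus strand. Its start was the only place in the gene where several lists had peaks. In shCTR, PHF19 replicate 2 had a peak from -675 to 1319 bp relative to the start, over exons 1 and 2, with a MACS score of 88.6, which was higher than 78.7% of that list. H3K27me3 replicate 2 had a narrower peak there, of 1278 bp with a score of 171, and MTF2 replicate 2 had a peak of 2399 bp with a score of 559. None of the replicate 1 lists of shCTR cells held a peak at CDH1. In shPHF19L#4, the start carried MTF2 peaks in both replicates, with a score of 1421 in replicate 2, and an H3K27me3 peak of 2612 bp in replicate 2 (score 586) but not in replicate 1. Scores grow with the depth of a library as well as with enrichment, and were not scaled between lists. The share of peaks with a lower score in the same list, at CDH1 in replicate 2, was 94.5% for MTF2 in shCTR and 94.0% in shPHF19L#4, and 76.6% and 83.8% for H3K27me3.

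ZEB2 encodes a zinc finger repressor of CDH1 and had the most widely shared peaks of the group. The gene lies on chr2:145121931-145278624, on the minus strand, and its canonical transcript starts 938 bp inside the gene model. In shCTR, EZH2 replicate 1 had a peak of 1045 bp from 531 to 1575 bp after the gene start (score 76.2), over the canonical start and exon 1. EZH2 replicate 2 had a peak of 1447 bp from 3307 to 4753 bp after it (score 85.1), over exon 2. The scores in replicates 1 and 2 were higher than 51.7% and 30.1% of their lists. These 2 peaks did not overlap each other. PHF19 replicate 2 had peaks from 422 to 3515 bp after the gene start (score 533, higher than 97.0% of the list) and upstream, from -3133 to -1559 bp (score 311). PHF19 replicate 1 had no peak in the gene.

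H3K27me3 covered the canonical start of ZEB2 in all 4 of its lists. In shCTR the peak there was 6754 bp wide in replicate 1 (score 1357, higher than 98.9% of the list) and 2350 bp wide in replicate 2 (score 391, higher than 91.8%). In shPHF19L#4 the highest score in the gene was 704 in replicate 1 (higher than 95.1%) and 2344 in replicate 2 (higher than 97.5%). Against shCTR, the highest score in shPHF19L#4 was thus lower in replicate 1 and higher in replicate 2. In replicate 1, however, the 6754 bp peak of shCTR was overlapped in shPHF19L#4 by separate peaks of 5080 bp (score 704) and 3610 bp (score 505). Scores of single peaks are therefore not like for like there. The covered length in replicate 1 was 10730 bp in shCTR and 10859 bp in shPHF19L#4. MTF2 peaks lay over exon 1 of ZEB2 in all 4 MTF2 lists.

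The stretch of ZEB2 shown here is the beginning of intron 1 in the direction of transcription, on chr2:145277206-145277505 of GRCh37, minus strand. It lay wholly inside a peak of 10 of the 14 lists and inside a region of the PHF19 and EZH2 tables. Every CG, the dinucleotide that is dense in CpG islands, where PRC2 is often found, is in capitals.
ZEB2: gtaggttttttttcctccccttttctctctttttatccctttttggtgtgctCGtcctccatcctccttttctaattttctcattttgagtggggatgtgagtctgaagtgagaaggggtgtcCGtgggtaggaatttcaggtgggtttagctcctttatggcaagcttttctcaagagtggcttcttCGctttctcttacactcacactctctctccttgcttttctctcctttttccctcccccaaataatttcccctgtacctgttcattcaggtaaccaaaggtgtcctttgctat
It held 3 CG, and the 300 bases before the canonical start held 13. CG were not counted over whole peaks.

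ZEB2 was also the only EMT gene in 3 of the 5 tables, those of PHF19, EZH2 and MTF2. It was compared with 806 other genes that had levels in the same 3 tables. The share of all genes with regions in 3 tables is not given here, so whether this is unusual was not tested. Over the 6 mean concentrations of ZEB2 in these tables, with regions of a gene averaged, the most similar genes were ZFHX4 (Euclidean distance 1.02 on the log2 scale), RPH3A (1.03) and RAB37 (1.13). The median distance to all 806 was 4.19.

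ZEB1, the paralogue of ZEB2, lies on chr10:31607424-31818742, on the plus strand, and had peaks of replicate 2 lists only. The MTF2 peak over its first exon and intron had a score of 161 in shCTR, higher than 83.8% of the list, and 206 in shPHF19L#4, higher than 77.9%. Its 2 PHF19 peaks had scores of 51.5 and 50.7, higher than 9.86% and 4.84% of the list. No EZH2, SUZ12 or H3K27me3 list had a peak at ZEB1, whereas ZEB2 had peaks in every EZH2 and H3K27me3 list.

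SNAI1 and SNAI2 encode the zinc finger repressors Snail and Slug. SNAI1, on chr20:48599517-48605423, plus strand, had no peak of any kind from 10 kb upstream to its end. SNAI2, on chr8:49830157-49834299, minus strand, had H3K27me3 peaks in replicate 1 of shCTR, of 5430 bp (score 484, higher than 90.4% of the list) and 1619 bp (score 70.5), both upstream of the gene. Replicate 2 of shCTR held none. In shPHF19L#4 upstream peaks were present in both replicates, the highest of them 3883 bp wide in replicate 1 (score 464, higher than 90.0%) and 5583 bp wide in replicate 2 (score 722.1, higher than 86.8%). A lower peak lay over the start of SNAI2 in both, 2857 bp wide in replicate 1 (score 217) and 4163 bp wide in replicate 2 (score 526). PHF19 replicate 2 had a peak of 1505 bp over the start with a score of 88.1. MTF2 had a peak over the start in replicate 2 of shCTR (score 329, higher than 91.5% of the list) and in both replicates of shPHF19L#4, with a score of 1132 in replicate 2 (higher than 92.9%).

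TWIST1 and TWIST2 encode basic helix-loop-helix factors. The TWIST1 gene model, on chr7:19060614-19157259, minus strand, is 96646 bp long, whereas its canonical transcript spans 2169 bp at the start. Of the 73 peaks in the interval, 52 lay downstream of the canonical transcript. H3K27me3 covered 38215 bp of the interval in replicate 1 of shCTR (35.8%) and 20042 bp in replicate 2 (18.8%). It covered 41058 bp (38.5%) and 66307 bp (62.2%) in the shPHF19L#4 replicates. The covered length was greater than at 98.7% of all protein-coding genes in replicate 1 of shCTR and greater than at 99.3% in replicate 2. In shPHF19L#4 these shares were 99.0% and 98.9%. EZH2 replicate 1 had a peak of 929 bp, 7831 bp after the start (score 70.8, higher than 44.7% of the list). PHF19 replicate 2 had its highest TWIST1 peak upstream, from -2918 to -1424 bp relative to the start, with a score of 172. MTF2 peaks overlapped the same upstream stretch in replicate 2 of shCTR and in both shPHF19L#4 replicates. At TWIST2, on chr2:239756673-239832230, plus strand, the only peak was an MTF2 peak of 2144 bp over the start in replicate 2 of shPHF19L#4 (score 191).

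Of the 3 structural genes of the mesenchymal state, only FN1 had H3K27me3 peaks. FN1 lies on chr2:216225163-216300796, minus strand. Its H3K27me3 peak lay just upstream of the start in all 4 lists, with scores of 225 and 153 in shCTR (higher than 75.2% and 73.5% of the lists) and 315 and 562 in shPHF19L#4 (higher than 83.2% in each). PHF19 replicate 2 had a peak of 1093 bp in the same place (score 105). MTF2 had peaks at the start or just upstream in replicate 2 of shCTR (score 247 for the higher, above 89.2% of the list) and in both shPHF19L#4 replicates (score 552 in replicate 2, above 88.8%). VIM, on chr10:17270240-17279592, plus strand, had 2 MTF2 peaks in replicate 2 of shPHF19L#4, with scores of 56.7 and 65.1. CDH2, on chr18:25512843-25757910, minus strand, had a single PHF19 peak of 1409 bp in intron 1 in replicate 1, with a value higher than 10.4% of that list.

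The promoter of FN1, which had MTF2 peaks, is shown because it is rich in CG where the ZEB2 stretch is not. The line gives the 300 bases before the canonical start in GRCh37, chr2:216300792-216301091 on the minus strand, with each CG in capitals.
FN1: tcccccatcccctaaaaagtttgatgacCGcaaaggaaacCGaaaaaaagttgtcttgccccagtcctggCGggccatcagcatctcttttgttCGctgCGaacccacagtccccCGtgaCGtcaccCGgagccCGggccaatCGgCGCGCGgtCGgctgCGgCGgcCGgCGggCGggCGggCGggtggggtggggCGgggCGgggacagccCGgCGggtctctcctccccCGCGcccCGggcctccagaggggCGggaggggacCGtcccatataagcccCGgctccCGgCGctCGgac
It held 34 CG, against a median of 21 over all 19856 promoters of this length. In the 1000 bases centred on the canonical start, CG were counted for 8 of the EMT genes, among which CDH2 held the most (118), followed by TWIST1 (107) and TWIST2 (99). ZEB2 held the fewest (32), with SNAI2 (49) and VIM (55) next to it and FN1 (68) and ZEB1 (88) between. The median over all promoters was 66. CDH2 had a peak in 1 list and ZEB2 in 11. CG were counted for 8 genes and only around the start, and a relation between CG and peaks was not tested.

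**Figure D2:**
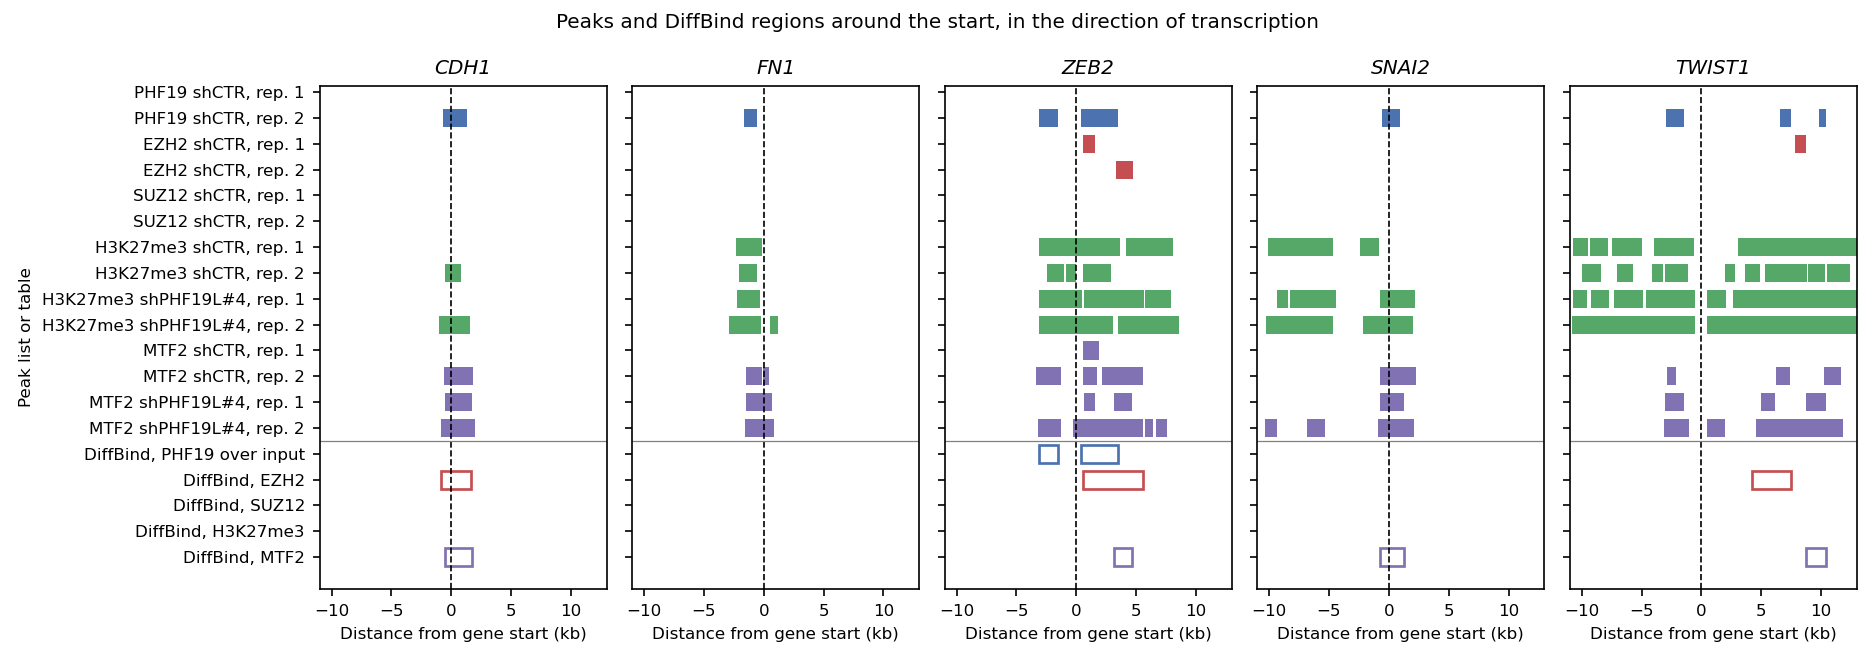
Peaks of the 14 lists (filled bars) and regions of the 5 tables (open bars) at CDH1, FN1, ZEB2, SNAI2 and TWIST1, by distance from the gene start (kb, positive in the direction of transcription, farther peaks of TWIST1 and CDH1 not drawn). At CDH1, FN1 and SNAI2 MTF2 peaks lie over the start, and at TWIST1 PHF19 and MTF2 peaks lie upstream and downstream of it while the EZH2 peak lies downstream.

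The tables of differential binding give, for each region, the mean concentration of reads in each group as the authors computed it, on the log2 scale, with no value per replicate. They list only regions under the authors' P value threshold, so a gene that is absent from a table may have been tested and not listed. Regions of any table were found at 4 of the 10 genes, 9 regions in all, and at 13.6% of all genes. The PHF19 table, which sets the ChIP against input in shCTR cells, held ZEB2 (1 of 10, against 1008 of all 20163 genes, or 5.0%). The EZH2 table, which compares shPHF19L#4 with shCTR cells, held CDH1, ZEB2 and TWIST1 (3 of 10, against 10.3%). The MTF2 table held CDH1, ZEB2, SNAI2 and TWIST1 (4 of 10, against 9.72%). With 2.5 kb to each side of the start the MTF2 count was 2. No EMT gene was in the SUZ12 table (2.64% of all genes) or in the H3K27me3 table (4.02%).

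At ZEB2 the PHF19 concentration was 6.38 in the ChIP and 3.91 in input at chr2:145275109-145278202, a difference of 2.47, which was higher than at 88.6% of the regions of the table. At chr2:145280183-145281757, upstream of the gene and overlapping the long noncoding RNA genes LINC01412 and LINC02993, it was 5.67 and 3.86, a difference of 1.81. The median of both differences was 2.14. Both regions have the coordinates of PHF19 peaks of replicate 2, and replicate 1 had no PHF19 peak at ZEB2. The median difference over all 1245 regions was 1.58, and the 5th and 95th percentiles were 1.08 and 2.92. All of the table's regions (100%) were higher in the ChIP than in input, so the direction carries no information about ZEB2.

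EZH2 concentration at the CDH1 start, chr16:68770359-68772834, was 5.48 in shCTR and 6.93 in shPHF19L#4. This difference of 1.45 was larger than at 81.6% of the table's regions. At ZEB2 it was 6.56 and 7.36 (chr2:145273016-145278093, difference 0.80), and downstream of the TWIST1 canonical transcript 5.87 and 6.66 (chr7:19149784-19153062, difference 0.79). Of all 2408 regions, 2407 (100% after rounding) were higher in shPHF19L#4, with a median difference of 1.16 and 5th and 95th percentiles of 0.65 and 1.70. The differences at ZEB2 and TWIST1 were thus larger than at 11.7% and 11.1% of the regions. The median over the 3 EMT regions was 0.80. Since nearly all regions were higher in shPHF19L#4, the direction carries no information about the 3 genes. CDH1 had the lowest EZH2 level of the 3 genes in shCTR and stood between them in shPHF19L#4. Its shCTR level was higher than at 24.7% of the regions, and neither shCTR list held an EZH2 peak at CDH1.

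MTF2 concentration at the CDH1 start, chr16:68770688-68772904, was 7.35 in shCTR and 7.91 in shPHF19L#4, a difference of 0.56. At SNAI2 it was 7.01 and 7.68 (chr8:49833002-49835031, difference 0.67). It was 5.98 and 6.62 at exon 2 of ZEB2 (chr2:145273938-145275479, difference 0.64) and 5.80 and 6.68 downstream of the TWIST1 canonical transcript (chr7:19146811-19148497, difference 0.88). Higher MTF2 levels in shPHF19L#4 were found at 2539 of the table's 2546 regions (99.7%), with a median difference of 0.87 and 5th and 95th percentiles of 0.52 and 1.29. The direction therefore carries no information about the EMT genes. All 4 EMT regions have the coordinates of MTF2 peaks of replicate 1 in shPHF19L#4. Replicate 1 of shCTR had no MTF2 peak over any of them. The median over the 4 EMT regions was 0.66. CDH1 combined an EZH2 difference in the upper part of its table with an MTF2 difference larger than at only 6.79% of the MTF2 regions.

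**Figure D3:**
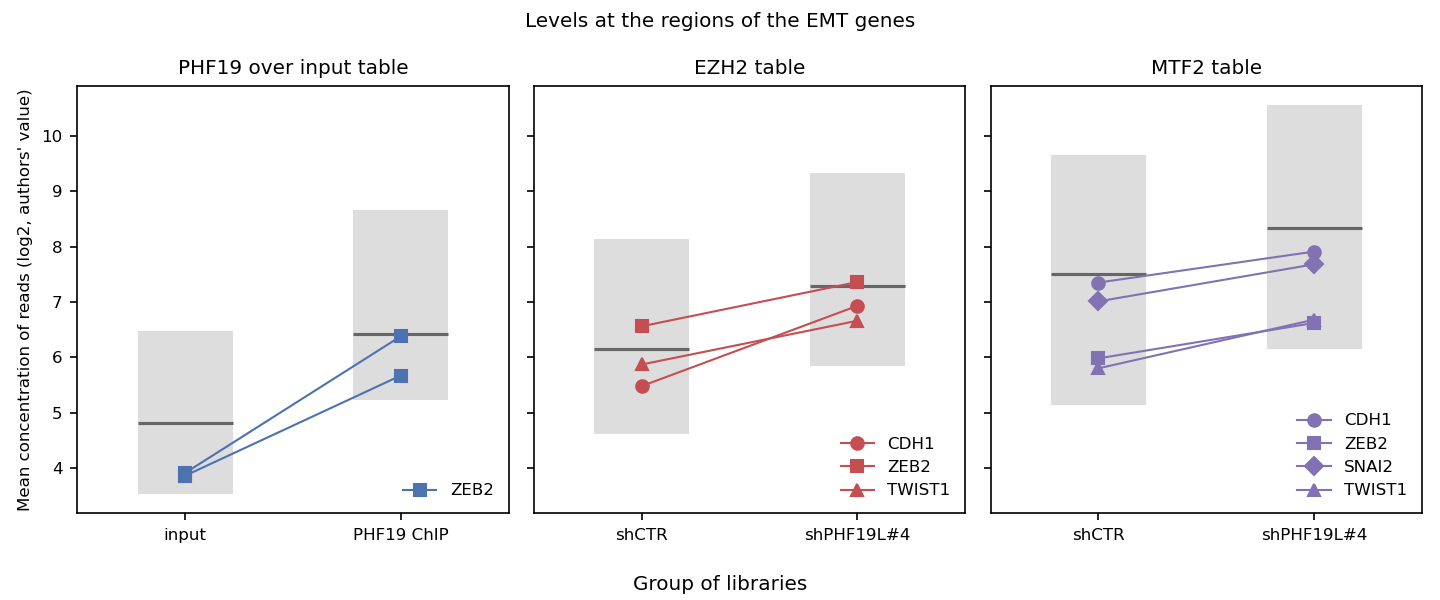
Mean log2 concentration of reads (authors' values) at the regions of CDH1, ZEB2, SNAI2 and TWIST1 in input and PHF19 ChIP, and in shCTR and shPHF19L#4 for EZH2 and MTF2. Grey boxes span the 5th to 95th percentile over all regions of a table and grey lines are medians, and the EZH2 line of CDH1, from 5.48 to 6.93, is the steepest of the EZH2 lines drawn.

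With no EMT gene in the H3K27me3 table, the mark at these genes was compared between conditions through the peak lists, and the replicates differed in how much was called. The replicate 1 lists covered 108 Mb of the genome for shCTR and 96.9 Mb for shPHF19L#4, whereas those of replicate 2 covered 30.4 and 159 Mb. At ZEB2 the covered length was 10730 and 10859 bp in replicate 1, and 4629 and 11220 bp in replicate 2. At FN1 it was 2181 and 1920 bp in replicate 1, and 1511 and 3412 bp in replicate 2. Between the shCTR and shPHF19L#4 lists, lengths at both genes were thus far apart in replicate 2 and close in replicate 1, as were the lengths of the whole lists. The difference in list size was not separated from a difference between conditions, and its part in the longer peaks was not tested.

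Further epithelial and mesenchymal genes, 22 in each list, were examined by the same rule. Epithelial genes had a PHF19 peak in both replicates in 6 of 22 cases: CLDN7, TJP1, DSP, OVOL1, OVOL2 and ST14. Among the mesenchymal genes, LOX was the only one (1 of 22). The share of all genes was 3.89%. These counts rest on the short list of replicate 1, and in replicate 2 alone 11 of 22 epithelial and 9 of 22 mesenchymal genes (40.9%) had a PHF19 peak, against 26.1% of all genes. MTF2 marked 5 epithelial genes (22.7%) and 1 mesenchymal gene, TCF4 (4.55%), in both shCTR replicates, against 6.15% of all genes. In shCTR replicate 2 alone it marked 21 (95.5%) and 14 (63.6%), against 53.1%. In both shPHF19L#4 replicates it marked 7 (31.8%) and 2 (9.09%), against 11.1%. The mesenchymal shares for both replicates were close to those of all genes. In shPHF19L#4 replicate 2 alone the counts were 19 (86.4%) and 12 (54.5%), against 54.2%. EZH2 marked OVOL1 and OVOL2 (9.09%) and no mesenchymal gene in both replicates, against 2.51% of all genes. In replicate 2 alone EZH2 marked 6 epithelial genes (27.3%) and 1 mesenchymal gene, TCF4 (4.55%), against 5.47%. SUZ12 marked OVOL1 alone (4.55%) in both replicates, against 0.283%. H3K27me3 marked 6 genes of each list (27.3%) in both shCTR replicates, against 15.0% of all genes. By replicate, it marked 6 epithelial and 8 mesenchymal genes in replicate 1 (against 22.5%). In replicate 2 it marked 10 and 7 (against 16.7%). In both shPHF19L#4 replicates it marked 6 epithelial genes (27.3%) and 8 mesenchymal genes (36.4%), against 21.3%. The epithelial genes were not all the same, as DSP met this rule in shCTR only and MUC1 in shPHF19L#4 only. Replicate 1 of shPHF19L#4 alone marked 6 epithelial and 8 mesenchymal genes (against 21.9%). Replicate 2 alone marked 10 and 12 (against 32.8%). The H3K27me3 genes of the mesenchymal list in both shCTR replicates were PRRX1, TCF4, SNAI3, DCN, POSTN and THY1.

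In the tables, 7 epithelial genes had an EZH2 region (CLDN7, TJP1, DSP, OVOL1, OVOL2, ST14 and MUC1) and the same 7 had an MTF2 region, a share of 31.8% against 10.3% of all genes for EZH2 and 9.72% for MTF2. The mesenchymal genes with a region were SNAI3 and LOX for EZH2, and TCF4 and LOX for MTF2, in each case 9.09% of the list and thus close to all genes. Median differences were 1.05 over the 7 epithelial and 1.02 over the 2 mesenchymal EZH2 regions, below the table's 1.16 in both lists. For MTF2 they were 0.79 and 0.67. SUZ12 regions were found at 4 epithelial genes (18.2%) and no mesenchymal gene, against 2.64% of all genes. H3K27me3 regions were found at 3 epithelial genes (13.6%) and, among the mesenchymal genes, at TCF4 alone (4.55%), against 4.02%. PHF19 regions were found at TJP1, DSP, OVOL1, OVOL2 and ST14 (22.7%) and at SNAI3 and LOX (9.09%), against 5.0%. Within these 2 lists, the highest PHF19 differences over input were at OVOL2 (2.54) and DSP (2.26), which encode a zinc finger factor of epithelial identity and the desmosome protein desmoplakin. At OVOL1, which encodes a related factor, EZH2 was 8.04 in shCTR and 9.01 in shPHF19L#4, and SUZ12 was 6.70 and 7.52. CLDN7, a claudin of tight junctions, had an EZH2 level of 6.68 and 8.22 and an H3K27me3 level of 7.36 and 8.54. TJP1, which encodes the tight junction scaffold ZO-1, was the only gene of either list with a region in all 5 tables. Genes of the lists were named by their number of tables, and the share of all genes in all 5 is not given here. LOX, which encodes a collagen crosslinking enzyme, had EZH2 levels of 5.86 and 6.82. ST14, a membrane serine protease gene, had MTF2 levels of 9.15 and 9.94.

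**Figure D4:**
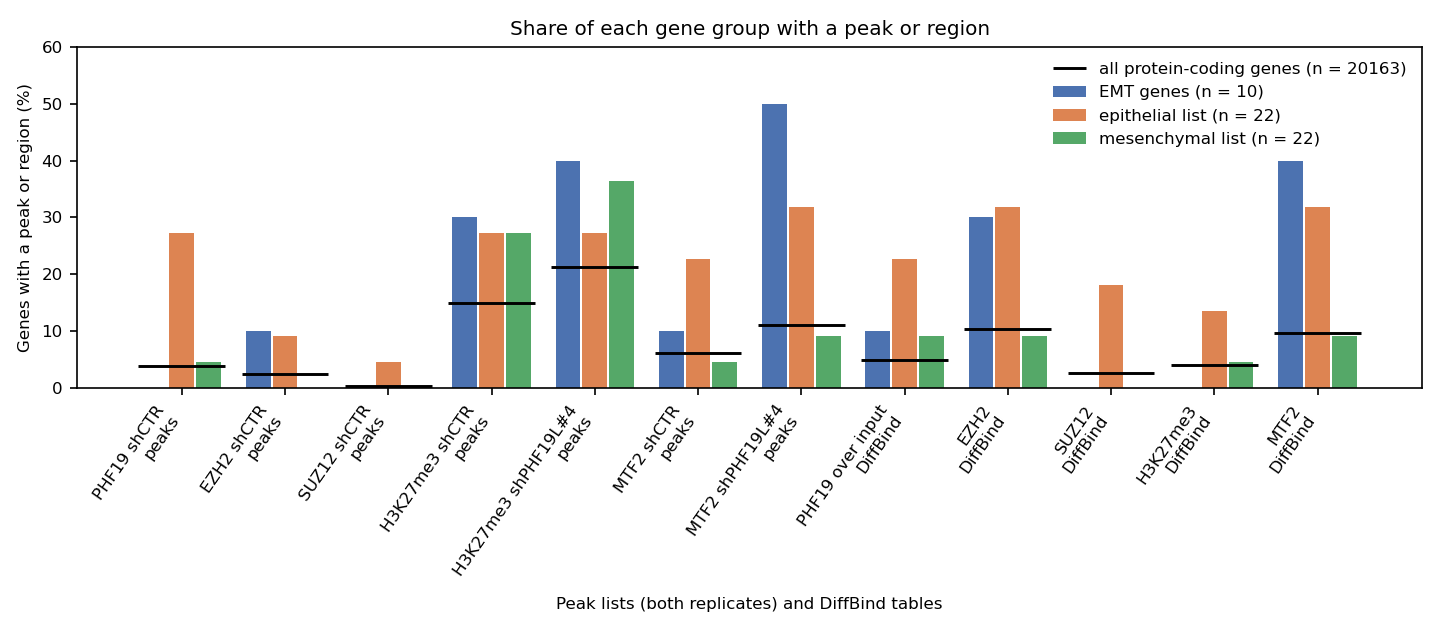
Share of genes (%) with a peak in both replicates (left 7 groups of bars) or with a region in a table (right 5 groups), for the 10 EMT genes, the 22 epithelial and 22 mesenchymal genes, with black lines for all 20163 protein-coding genes. PHF19 peaks in both replicates mark 27.3% of the epithelial, 4.55% of the mesenchymal and none of the EMT genes, and in replicate 2 alone 11 epithelial and 9 mesenchymal genes (not drawn).

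The lists were chosen by hand and the difference between them was not tested. Depth is unknown because the files hold no read totals, and the peak lists carry no scaling by the fly spike-in.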

How the data were processed

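The files were 14 peak lists and 5 DiffBind tables of DU145 chromatin. Uniquely mapped reads had been placed by Bowtie on hg19 (GRCh37), with dm3 added where fly spike-in was present, and MACS had been run for every replicate separately against its control. A score is the MACS value that the authors deposited with a peak. The PHF19 list of replicate 1 gives a different whole number, used for rank only, and for MTF2 replicate 1 the authors deposited positions without values. Concentrations are log2 group means of the authors' DiffBind runs, for which no spike-in scaling is named. The tables also hold the authors' fold changes, P values and FDR, which were not used.

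Positions count from 1. Genes came from GENCODE release 44 mapped to GRCh37, and sequences from the GRCh37 genome. The promoter sequences of 2 members are not reported here. A gene counted for a group if each replicate had a peak in its interval, and for a table if it had a region. Differences are shPHF19L#4 minus shCTR, and for PHF19 ChIP minus input. No test was run, since groups have 2 replicates and the tables no value per replicate. Members and lists were chosen with earlier results of these data known. Named genes were the 10 members, up to 6 genes of each list with regions in the most tables (ties went to genes with peaks in more lists), and the 3 genes nearest to any member with regions in at least 3 tables. Other genes are named where a count was small, after their values were seen. Alternatives were other intervals, overlaps, scores, background genes and units of the median, each replicate left out and, added after seeing the data, the canonical transcript. Overlap counting was tested on simulated data. Tools were Python 3.11.15, numpy 2.4.6, scipy 1.17.1, pysam 0.24.0, samtools 1.23.1 and matplotlib 3.10.9. RNA-seq, inputs, and PHF19, EZH2 and SUZ12 lists of shPHF19L#4 cells were not analysed here.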

Additional observations from a re-analysis of the deposited data

How the results depend on the processing

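No paired analysis was run. The counts and medians given here were not tested, and the tables of differential binding hold no value per replicate. Values by replicate number are only set side by side. The counts depend most on the replicates. With a peak in either replicate, EMT genes in shCTR numbered 7 for PHF19 (26.3% of all genes by this rule), 2 for EZH2 (6.52%), 5 for H3K27me3 (24.2%) and 6 for MTF2 (53.4%), and in shPHF19L#4 8 for MTF2 (54.5%). With replicate 1 or replicate 2 left out, they ranged from 1 to 6 for PHF19, from 1 to 2 for EZH2, from 1 to 6 for MTF2 in shCTR and from 5 to 8 for MTF2 in shPHF19L#4. Epithelial genes then ranged from 6 to 11 for PHF19, 2 to 6 for EZH2, 1 to 2 for SUZ12, 6 to 10 for H3K27me3 in either condition, 5 to 21 for MTF2 in shCTR and 7 to 19 in shPHF19L#4. Mesenchymal genes ranged from 1 to 9 for PHF19, 0 to 1 for EZH2, 1 to 14 for MTF2 in shCTR and 2 to 12 in shPHF19L#4. For H3K27me3 the mesenchymal range was 7 to 8 in shCTR and 8 to 12 in shPHF19L#4. For PHF19 and MTF2 the upper counts came from replicate 2, whose lists also marked more of all genes, 26.1% for PHF19, 53.1% for MTF2 in shCTR and 54.2% in shPHF19L#4. The upper epithelial counts for EZH2 and H3K27me3 came from replicate 2 as well. Its lists marked 5.47% of all genes for EZH2 and, for H3K27me3, 16.7% in shCTR and 32.8% in shPHF19L#4. The upper SUZ12 count came from replicate 1 (1.22% of all genes).

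The EZH2 count of EMT genes fell from 1 to 0 with 2.5 kb to each side of the start, with a score of at least 100, and where the peaks of the replicates had to overlap each other. With 2.5 kb to each side of the start, EMT genes with an MTF2 region fell from 4 to 2, and mesenchymal genes with MTF2 peaks from 1 to 0 in shCTR and from 2 to 1 in shPHF19L#4. The median PHF19 difference went from 2.14 to 2.47 with the region nearest to the start. With the interval of the canonical transcript, chosen after seeing the data because of the length of the TWIST1 gene model, the median differences were 1.12 for EZH2 (0.80 before) and 0.64 for MTF2 (0.66 before), and the cause is that the TWIST1 regions drop out. All 12 background shares were lower over all 64449 annotated genes. Over all alternatives, 50 of 63 counts of EMT genes with peaks and 19 of 20 with regions stayed within 1.5 times the values given, 9 of 12 medians were the same to 2 decimals, and none reversed. These tallies include counts of 0 that stayed at 0, all of those for SUZ12 among them. A ratio has no meaning for such counts, and stricter settings could not lower them. SUZ12 and H3K27me3 gave no median, having no EMT region. Causes other than the one named were not tested. Depth limits every absence of a peak.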
